A study of Sus scrofa with 14 samples.

Results

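In all, 10 transcription factors known from the luminal epithelium of the mammary gland were followed through the nuclei, tissue sections and milk cells of the sow. They were taken as a list of names, with no threshold on a measured value: GATA3, FOXA1, TBX3, TFAP2A, TFAP2C, EHF, ELF3, GRHL2, NFIA and NFIB. All 10 were found among the 30071 gene identifiers of the series, each under 1 identifier in all 14 samples. Nuclei were sequenced from 10 glands of multiparous sows, 2 each at day 90 of gestation (G90), at day 0 (L0) and day 20 (L20) of lactation, and 2 days (PI2) and 7 days (PI7) post natural involution. A tissue section of G90, another of PI2, and the cells of colostrum (L0) and of mature milk (L20) completed the data, with 1 sample each. No genotype, treatment, strain or age was given in the labels, and each gland library is taken here as 1 sow, since the labels number replicates without naming animals.

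GATA3 is a zinc finger factor and FOXA1 a forkhead factor that opens chromatin, and both are known to work with the oestrogen receptor ESR1 in hormone-sensing luminal cells. TBX3, a T-box repressor, is needed for formation of the mammary bud. TFAP2A and TFAP2C are AP-2 factors of the luminal lineage. EHF and ELF3 are epithelium-specific ETS factors, relatives of ELF5, which drives the secretory alveolar cells. GRHL2, a grainyhead factor, maintains cell junction genes such as CDH1, and NFIA and NFIB are nuclear factor I proteins, of which NFIB is known to bind milk protein genes. The luminal layer of the gland holds hormone-sensing cells, which carry ESR1 and PGR and signal to their neighbours, KIT-positive progenitors, and the secretory cells that make milk.

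The sequences just upstream of GATA3, FOXA1 and TBX3 are shown because these 3 genes were higher together in hormone-sensing nuclei. Each is the 200 bases before the gene start in RefSeq (Sscrofa11.1), written 5′ to 3′ on the strand of the gene. The GATA3 window is chr10:63397978-63398177 (minus strand), the FOXA1 window chr7:62471033-62471232 (plus strand) and the TBX3 window chr14:37582504-37582703 (plus strand). Capitals mark AGGAAG or its reverse complement CTTCCT, the only form searched of the ETS motif of EHF, ELF3 and ELF5.
GATA3: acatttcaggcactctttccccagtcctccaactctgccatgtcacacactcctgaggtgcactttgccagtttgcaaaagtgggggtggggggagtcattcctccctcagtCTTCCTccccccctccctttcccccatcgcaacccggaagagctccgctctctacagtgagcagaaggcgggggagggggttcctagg
FOXA1: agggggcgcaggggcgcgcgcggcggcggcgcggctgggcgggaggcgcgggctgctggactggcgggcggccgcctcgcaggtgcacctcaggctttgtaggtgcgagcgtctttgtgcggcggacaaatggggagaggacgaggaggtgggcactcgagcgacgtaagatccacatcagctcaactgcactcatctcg
TBX3: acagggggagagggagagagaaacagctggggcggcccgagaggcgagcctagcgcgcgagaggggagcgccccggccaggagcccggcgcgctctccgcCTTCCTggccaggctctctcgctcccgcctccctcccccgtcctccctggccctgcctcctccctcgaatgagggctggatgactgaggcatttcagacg

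The GATA3 match lies 88 to 83 bases and the TBX3 match 100 to 95 bases upstream of the start, and the FOXA1 window holds no match to any motif searched. The upstream window of NFIB is the only other one of the 10 with this form, 18 to 13 bases before the start. Other ETS forms with GGAA, such as cggaag in the GATA3 window, were neither searched nor marked. AGGAAG or CTTCCT occurs in 20.5% of 19556 promoter windows of this length, so these matches are a description of the letters and not sites. None of the 10 windows holds, on either strand, the GATA motif AGATAA (6.14% of all windows), the forkhead motif TGTTTAC (1.74%), the AP-2 motif GCCNNNGGC (19.2%), the grainyhead motif AACCNGTT (1.07%), the T-box motif AGGTGTGA (0.486%), the palindromic nuclear factor I motif (0.0358%) or the palindromic oestrogen response element (0.0102%). The windows of FOXA1, TBX3 and TFAP2C are rich in G and C (70.5%, 71.5% and 73%), that of GRHL2 is poor in them (41%), and the median of all windows is 59%. FOXA1 (8406 bases) and TFAP2A share chromosome 7, and GATA3 and ELF3 share chromosome 10. EHF, at 26287244 to 26340222 on the minus strand of chromosome 2, is a direct neighbour of ELF5, with 103756 bases and 0 protein-coding genes between them.

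Nuclei were sorted into classes by marker genes, none of which was a member. A nucleus belonged to a class when at least 2 different markers of it had a UMI, a count of 1 RNA molecule, and more markers of it than of any other class did. Of 126833 nuclei kept, 43219 were luminal, 14085 fibroblast, 11132 endothelial, 5333 macrophage, 4130 T or natural killer (T/NK) and 4032 myoepithelial, and 41313 stayed without a class. Among luminal nuclei, 13744 had exactly 2 markers and so lay at the limit of the gate. The classes carried their defining markers: EPCAM was at 175 to 372 UMIs of the gene per 1000000 UMIs (CPM) in luminal nuclei and had a median of 34.5 CPM in macrophages, and CD3E was at 362 to 1137 CPM in T/NK nuclei. Both are genes of these gates, so their direction is given by the gate. The class gated as mural held EHF at a median of 942 CPM, against its label, so the levels of the members in it are not described, although it entered the fit of classes and the search for genes of like pattern. The 10 gland libraries held 18962138 to 53165191 UMIs, the milk samples 84971814 (L0) and 46923887 (L20) and the sections 42815421 (G90) and 17906403 (PI2), and luminal nuclei had a median of 2645 UMIs. At most 1.52% of the barcodes of the smaller library were shared by any pair of gland or milk libraries. A few pairs of libraries went against their stage labels by their luminal profile over all genes: L20 replicate 1 was most like PI2 replicate 2 (Spearman's rho = 0.955, against 0.903 with its own stage), L20 replicate 2 was most like PI7 replicate 1 (0.959), and PI2 replicate 1 was most like PI7 replicate 2 (0.969, against 0.88 with its own stage). CSN2, a milk protein gene, was at 214 and 22.3 CPM in luminal nuclei of the sows of L20 and at 3.57 and 505 CPM in those of PI2. Whether labels had been exchanged was not tested.

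Within the luminal class, FOXA1, TBX3 and GATA3 were higher in hormone-sensing nuclei. These nuclei were gated by at least 2 UMIs of ESR1, PGR, CITED1, TNFSF11 and AREG and more of these than of the genes for KIT-positive progenitors (KIT, ALDH1A3, CD14) or secretory nuclei (BTN1A1, XDH, FASN, ACACA, LALBA). They numbered 1426, or 3.3% of luminal nuclei, beside 10798 KIT-positive and 24285 secretory nuclei. KIT-positive is the name of the gate of KIT, ALDH1A3 and CD14, in which a UMI of KIT itself was not required. PRLR, the prolactin receptor, which no gate used, had a median of 2997 CPM in hormone-sensing nuclei, 1093 CPM in secretory and 779 CPM in KIT-positive nuclei. L0 replicate 1, with 16 hormone-sensing nuclei, 9 UMIs of FOXA1 (187 CPM) and 1 of TBX3 (20.7 CPM), was left out of that gate, so 9 sows carry these values.

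FOXA1 was at 50 CPM at the lowest, 99.8 CPM at the median and 407 CPM at the highest of the 9 sows in hormone-sensing nuclei. In secretory nuclei it ran from 0.601 CPM through a median of 2.01 CPM to 24.8 CPM over 10 sows, and in KIT-positive nuclei from 0 through 2.52 to 19.9 CPM. The lowest hormone-sensing value was thus above the highest value of either other gate, as for 0.811% of all genes against secretory and 0.855% against KIT-positive nuclei. The log2 fold change was 5.38 ± 0.31 (SE) against secretory nuclei (edgeR adjusted p = 3.29e-13) and 5.26 ± 0.31 against KIT-positive nuclei (adjusted p = 6.39e-13), with the sow as a block. FOXA1 passed the filter on low counts of this fit only through the hormone-sensing libraries, where it was high. Its p-values are therefore given as a description. TBX3 was at 49.9, 159 and 251 CPM in the lowest, median and highest sow of hormone-sensing nuclei. It was at 0.835, 8.28 and 26.8 CPM in secretory and at 0, 14.7 and 36.5 CPM in KIT-positive nuclei. The values of the 9 sows did not overlap with those of the other gates, but the lowest, L0 replicate 2, rested on 3 UMIs (exact Poisson interval 10.3 to 146 CPM), and the left-out L0 replicate 1 (20.7 CPM) lay below the highest values of both. Its log2 fold changes were 4.23 ± 0.28 (adjusted p = 4.23e-12) and 3.57 ± 0.27 (adjusted p = 6.71e-11). GATA3 was at 183, 560 and 1381 CPM in hormone-sensing nuclei. In secretory nuclei it was at 79.6, 134 and 368 CPM, and in KIT-positive nuclei at 65.9, 130 and 201 CPM. Its values overlapped between the gates, but it was higher within 9 of 9 sows, with log2 fold changes of 2.20 ± 0.24 (adjusted p = 3.81e-08) and 2.48 ± 0.24 (adjusted p = 7e-09).

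None of the other 7 members was called higher in hormone-sensing nuclei. TFAP2C was lower than in both other gates, and ELF3 was called lower only against KIT-positive nuclei. TFAP2C was at 0, 17.1 and 63.8 CPM there, against 13.9, 46.5 and 160 CPM in secretory nuclei, a log2 fold change of -1.31 ± 0.24 (edgeR adjusted p = 0.00012), and it was lower in 8 of 9 sows. The 0 stands for L0 replicate 2, whose 22 nuclei gave no UMI of TFAP2C among 60094, which allows up to 61.4 CPM. ELF3 was at 4.28, 23.9 and 80.3 CPM in hormone-sensing and at 5.66, 47.4 and 310 CPM in KIT-positive nuclei, a log2 fold change of -1.43 ± 0.24 (adjusted p = 3.85e-05). Against secretory nuclei it was at -0.82 ± 0.25 (adjusted p = 0.0113), under the fold limit of the call. EHF, at 415, 673 and 982 CPM in hormone-sensing and 539, 1285 and 1983 CPM in secretory nuclei, was below in 9 of 9 sows (log2 fold change -0.79 ± 0.15, adjusted p = 0.000128), as was GRHL2 (-0.61 ± 0.10, adjusted p = 1.56e-05). These were under the fold limit of the call, a log2 fold change over 1 in size. NFIA, NFIB and TFAP2A had log2 fold changes of -0.42, -0.44 and -0.32 against secretory nuclei.

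By that call, 3 members were higher and 1 was lower in hormone-sensing than in secretory nuclei, beside 7.95% of all 11585 genes higher and 5.72% lower (13.7% in all). Against KIT-positive nuclei 3 were higher and 2 lower, beside 7.34% of all genes higher and 5.95% lower (13.3% in all). Between KIT-positive and secretory nuclei edgeR called 0 members, beside 0.25% of all genes (0.129% higher, 0.121% lower), and DESeq2 also called 0, beside 0.233% of all genes. ELF3 (0.61 ± 0.19) and TBX3 (0.65 ± 0.29) had an unadjusted p under 0.05 there, as did 9.72% of all genes. Without the block on the sow, the calls of TFAP2C (-1.03 and -0.87) and of ELF3 (-1.32) were lost, and those of FOXA1, TBX3 and GATA3 were not. Without L20 replicate 1 and PI2 replicate 2, a pair of libraries that resembled each other across stages, 3 members were again higher in both comparisons. This was beside 8.12% of all genes against secretory and 7.62% against KIT-positive nuclei. The other libraries that were most like a library of another stage stayed in.

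**Figure D1:**
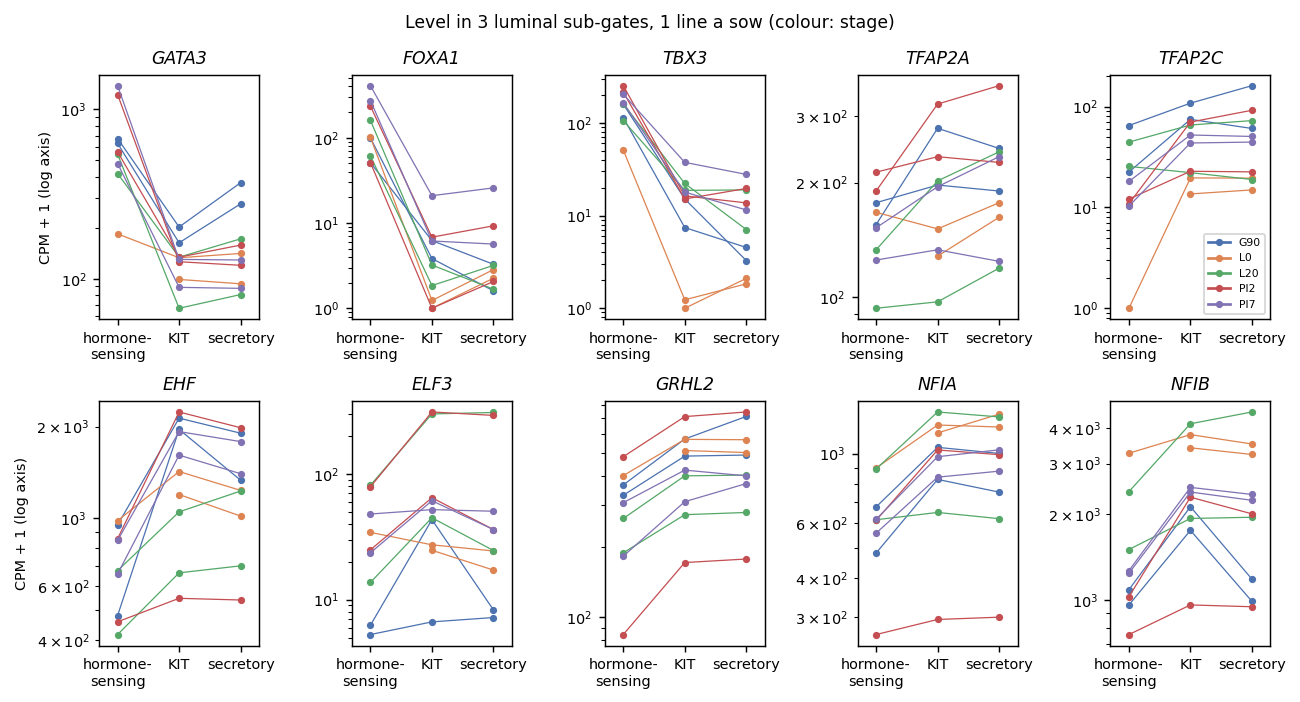
Level of each factor (CPM + 1, log axis) in hormone-sensing, KIT-positive and secretory luminal nuclei, with 1 line for each sow, coloured by stage. FOXA1 and TBX3 fall from the hormone-sensing gate to both other gates in every sow plotted there, while the lines of EHF and GRHL2 rise.

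Hormone-sensing nuclei were deeper (median 3970.5 UMIs) than secretory (2813) and KIT-positive nuclei (2845). With each nucleus thinned to 1000 UMIs, which left out 2.31% of hormone-sensing and 3.84% of secretory nuclei, FOXA1 had a UMI in 11.7% ± 8.63 (SD, n = 9 sows) of hormone-sensing and 0.356% ± 0.469 (n = 10) of secretory nuclei. The shares were 12.2% ± 5.23 and 0.926% ± 0.787 for TBX3, and 36.9% ± 14.7 and 12.7% ± 6.79 for GATA3. At the full depth, FOXA1 had a UMI in 9.09% to 55.9% of hormone-sensing nuclei of the 9 sows. In macrophages, a cell type in which FOXA1 should be absent, the thinned share was 0.263% ± 0.489, at a median depth of 1974 UMIs before thinning. Hormone-sensing nuclei held 4.89% of all UMIs of luminal nuclei, but 71.1% of the FOXA1 UMIs (1335 of 1877), 46.4% of the TBX3 UMIs and 16.6% of the GATA3 UMIs. Within single sows these shares ran from 28.6% to 92.6% for FOXA1, from 6.25% to 69.1% for TBX3 and from 0.713% to 52.7% for GATA3. The pooled share of GATA3 rested on G90 replicate 2, without which it was 25.7%. For the other 7 members the pooled shares were 1.78% to 3.67%, and the shares in single sows were 0% to 11.7%, with medians of 1.87% (ELF3) to 4.42% (NFIA). Read the other way, 61.3% of the 863 luminal nuclei with a FOXA1 UMI fell in the hormone-sensing gate (14.3% to 83.8% in single sows), against 2.12% of the 42356 without one (0.286% to 6.51%). The nuclei with a UMI were deeper (medians of 4272 and 2622 UMIs).

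Paralogs of the members were called in both directions. Of 26 paralogs, 14 were tested between hormone-sensing and secretory nuclei, and 2 were higher and 6 lower. The AP-2 factor TFAP2B had a log2 fold change of 6.21 ± 0.33 (edgeR adjusted p = 5.69e-14), opposite to TFAP2C, and the ETS factor SPDEF one of 3.64 ± 0.29, opposite to ELF5 (-1.90 ± 0.14) and, below the fold limit, to EHF. TFCP2L1, a relative of GRHL2, fell by 1.59 on the log2 scale. Of 38 other regulators, 32 were tested, 6 were higher and 4 lower, with MYB (4.25 ± 0.28) beside SPDEF. PGR and ESR1 were higher too but are genes of the gate. Of 22 genes of the luminal programme, 18 were tested, with 4 higher, among them the membrane protein PROM1 (2.90 ± 0.34), and 4 lower, among them the milk protein genes CSN1S1 (-2.27 ± 0.25) and CSN2 (-2.19 ± 0.38), and LALBA, which the gate of secretory nuclei used. The median log2 fold changes of the 3 lists were -0.13, -0.13 and -0.08.

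The level of FOXA1 and TBX3 in all luminal nuclei differed widely between sows, as did the share of hormone-sensing nuclei. That share was 6.31% and 0.563% in the sows of G90. The sows of L0 had 0.351% and 0.54%, those of L20 had 1.95% and 9.64%, those of PI2 had 7.47% and 1.26%, and those of PI7 had 10.4% and 5.54%. The gate needs at least 2 UMIs of its genes and more than of the other gates. This share thus also depends on depth and on other RNA in a nucleus. Luminal nuclei had medians of 1689 and 4690 UMIs in the sows of L20. ESR1, a gene of the gate, was at 171 and 145 CPM in luminal nuclei at L0 and at 202 and 128 CPM at G90. The part of depth and of other RNA in the share was not tested. FOXA1 was lowest, at 1.45 CPM, in G90 replicate 2 and highest, at 69.7 CPM, in PI7 replicate 1, which had the largest share. In the 5 sows with a share under 2% FOXA1 was at 1.45 to 4.64 CPM, and in the other 5 at 7.86 to 69.7 CPM. TBX3 also differed in the rest of the luminal nuclei. Outside the hormone-sensing gate it was at 1.02 and 0.616 CPM in the sows of L0 and at 4.92 and 2.5 CPM at G90, against 14.4 to 35 CPM in the 6 sows of L20, PI2 and PI7. GATA3 did not order with the share: it was highest (367 CPM) in G90 replicate 2, where hormone-sensing nuclei were 0.563%. FOXA1 did not follow the share strictly either: L20 replicate 2 (9.64%) was at 19.8 CPM and PI7 replicate 2 (5.54%) at 25.6 CPM. Within the hormone-sensing gate the level of FOXA1 differed too, at 50 CPM in G90 replicate 1 and 407 CPM in PI7 replicate 1. In sums over all luminal nuclei alone, fewer cells of a kind and less RNA per cell cannot be told apart, and the part of each was not tested.

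**Figure D2:**
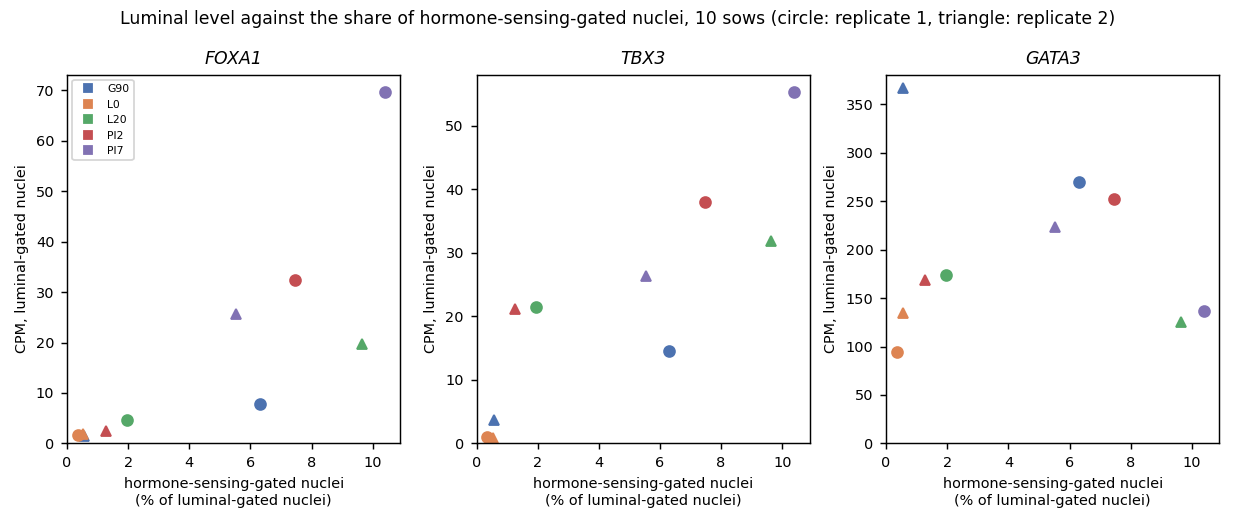
Level of FOXA1, TBX3 and GATA3 in luminal nuclei (CPM) against the share of hormone-sensing nuclei among them (%), 1 point for each of 10 sows. The share is that of nuclei that passed the gate, which also depends on depth. FOXA1 is near 0 in sows with few hormone-sensing nuclei and highest in PI7 replicate 1, whereas GATA3 is highest in a sow with 0.563% of such nuclei.

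It was then asked how far the 10 factors set luminal nuclei apart from other cells of the gland. EHF, GRHL2, TFAP2A, TFAP2C, GATA3, ELF3 and NFIB were higher in luminal nuclei than in fibroblasts and endothelial nuclei, and of the 9 members tested all were higher than in macrophages. FOXA1 did not pass the filter on low counts of this fit. Medians of 10 sows for EHF were 1319 CPM in luminal, 601 in myoepithelial, 474 in fibroblast, 392 in endothelial and 288 in macrophage nuclei. GRHL2 had medians of 441, 303, 145, 113 and 72.4 CPM in the same order. Both genes were higher in luminal nuclei in 10 of 10 sows in each of the 4 pairings. TFAP2A was at 195, 205, 72.8, 55.7 and 46.3 CPM, with like medians in luminal and myoepithelial nuclei. GATA3 had 172, 195, 73.4, 56.1 and 37.3 CPM.

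Against fibroblasts, 7 members were higher and 1 was lower, beside 7.07% of all 12321 genes higher and 13.1% lower (20.1% in all). The log2 fold changes of those higher ran from 1.55 ± 0.18 (NFIB) to 2.29 ± 0.24 (ELF3), and only ELF3 lost its call without the block on the sow (1.87), as it did against endothelial nuclei (1.94). TBX3 was lower, at -1.08 ± 0.26 (edgeR adjusted p = 0.000478), with a median of 21.3 CPM in luminal and 44.2 CPM in fibroblast nuclei. It was below in 8 of 10 sows, and the call was lost without L0 replicate 1 (-0.96) or PI2 replicate 2 (-0.92) and in 3 other settings. NFIA, by contrast, had like medians in fibroblasts (median 933 CPM) and endothelial nuclei (927 CPM) and in luminal nuclei (958 CPM), with log2 fold changes of 0.04 ± 0.16 and 0.17 ± 0.16.

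Against endothelial nuclei 7 members were higher, those named above, and 0 were lower (21.4% of all genes called, 8.76% higher, 12.6% lower). NFIB was the smallest of them, at 1.12 ± 0.18, and its call was lost with DESeq2 (0.90) and without L20 replicate 2 (0.96). TBX3 was at 0.74 ± 0.30. Against macrophages 9 of 9 were higher (27.2% of all genes called, 14.2% higher, 12.9% lower), from NFIA at 1.38 ± 0.16 to TFAP2C at 2.94 ± 0.29. Myoepithelial nuclei form the contractile outer layer. Their levels of the members were at medians of 33.5% (FOXA1) to 105% (TFAP2A) of the luminal level of the same sow, with EHF at 46.9%. FOXA1 ran from 0% to 119% in single sows, on at most 12 UMIs of it in the myoepithelial nuclei of a sow. Of the epithelial genes measured in the same way EPCAM was at 24.1%, CDH1 at 47.2%, ELF5 at 49.8%, CSN1S1 at 52.8%, PIGR at 62.1% and CSN2 at 64.9% in these nuclei, and the part of luminal RNA counted there was not tested. EHF alone was called higher in luminal nuclei, at 1.34 ± 0.19 (edgeR adjusted p = 3.82e-08), beside 8.53% of all genes (1.54% higher, 6.99% lower). Without the filter on low counts 6 members were called, beside 9.26% of all genes. Of those not called with the filter, GRHL2 was higher in luminal nuclei in 10 of 10 sows, NFIA and ELF3 in 9 and NFIB in 8. Without each replicate their log2 fold changes stayed above 0 but under the fold limit. They ran from 0.6 to 0.76 (GRHL2), 0.62 to 0.81 (NFIA), 0.78 to 0.98 (ELF3) and 0.48 to 0.66 (NFIB). TBX3 was higher in 8 of 10 sows, TFAP2C and GATA3 in 6 and TFAP2A in 4. GATA3 was at 0.15 ± 0.20 and TFAP2A at 0.22 ± 0.20. FOXA1, tested only without that filter, was higher in luminal nuclei in all 4 pairings, by 2.31, 2.26, 2.83 and 3.47 on the log2 scale against myoepithelial, fibroblast, endothelial and macrophage nuclei.

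Among the paralogs 15 were tested between classes. Against myoepithelial nuclei 2 were higher, ELF5 (1.36 ± 0.20) and ETV6 (1.05 ± 0.15), and TBX5, a relative of TBX3, was lower (-1.07 ± 0.40). Against fibroblasts 6 were higher and 3 lower, with TBX5 at -3.85 ± 0.30 and GATA6, a relative of GATA3, at -3.33 ± 0.29. Against endothelial nuclei 6 were higher and 2 lower, with GATA6 at -3.45 ± 0.30 and TFAP2B at 2.55 ± 0.34, and against macrophages 7 were higher and 1 lower, the ETS factor ELF4 (-2.37 ± 0.21). Of 29 other regulators tested, 6, 12, 13 and 13 were higher and 4, 4, 3 and 2 lower against myoepithelial, fibroblast, endothelial and macrophage nuclei. TP63, the basal factor and a gene of the myoepithelial gate, was at -4.56 ± 0.20 against those nuclei, and PPARG, the adipocyte factor, at -3.49 ± 0.31 against fibroblasts. Of 17 genes of the luminal programme tested, 12, 14, 14 and 16 were higher and 0, 0, 1 and 1 lower, but most of these genes served in the luminal gate, so their direction is given by the gate. Between stages 0 genes of these lists were called with edgeR.

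**Figure D3:**
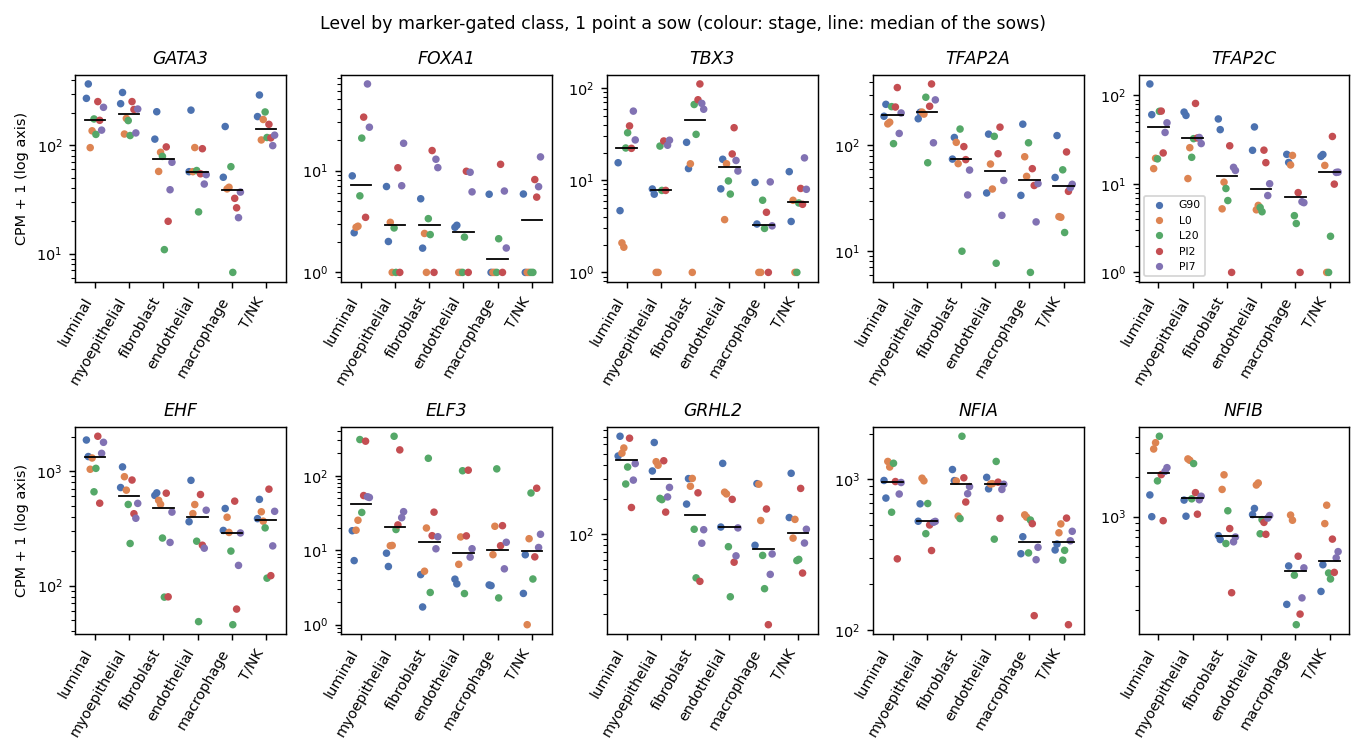
Level of each factor (CPM + 1, log axis) in 6 classes of nuclei, 1 point for each sow, coloured by stage, with a line at the median of the sows. EHF and GRHL2 are highest in luminal nuclei, NFIA has like medians in luminal, fibroblast and endothelial nuclei, the median of TBX3 is highest in fibroblasts, and GATA3 is higher in T/NK nuclei than in macrophages.

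RNA of other cells may be counted in a nucleus, and its part was not tested. Macrophages held EHF at a median of 19.2% of the luminal level of the same sow, GRHL2 at 19.9%, TFAP2A at 23.4%, NFIB at 19.6% and GATA3 at 17.3%. Of 8 epithelial genes measured in the same way, EPCAM and ESRP1 stood at 12.8% each, ELF5 at 23%, CSN1S1 at 23.3%, PIGR at 28.9%, CDH1 at 29.3%, ERBB3 at 34.2% and CSN2 at 36%, so the values of those 5 members lay within the range of these genes. FOXA1 was at 1.43% (0% to 61.7% in single sows) and TBX3 at 8.79% (0% to 63.9%), and NFIA, at 43%, was above the others. In macrophages of a sow FOXA1 had at most 16 UMIs and TBX3 at most 26, so the values of both lay near the floor of counting. The summed CPM of 11 luminal markers ran from 1341 to 2785 in luminal, from 502 to 1030 in myoepithelial and from 134 to 492 in macrophage nuclei. After thinning to 1000 UMIs, a luminal nucleus had UMIs of 2.62 ± 0.348 (SD, n = 10 sows) of the 10 members, a myoepithelial nucleus of 2.04 ± 0.328, a fibroblast of 1.46 ± 0.307 and a macrophage of 0.851 ± 0.294. Thinning left out 6.26% of luminal and 18.2% of macrophage nuclei as too shallow.

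GATA3 had a further place of expression. It is also the known regulator of T helper cells, and T/NK nuclei held it at 98.3, 139 and 290 CPM in the lowest, median and highest sow, a median of 75.3% of the luminal level of the same sow. It was above macrophages in 10 of 10 sows, with a log2 fold change of 1.92 ± 0.25 (edgeR adjusted p = 1.52e-09), and was the only one of the 9 members tested that was called (14.3% of all genes called, 5.32% higher, 8.95% lower). This comparison was added after the levels had been seen. EHF, for comparison, was at 0.40 ± 0.20 between the same classes. It too was above macrophages in 10 of 10 sows, with log2 ratios of 0.16 to 1.35 beside 0.96 to 4.13 for GATA3. In T/NK nuclei the sum of luminal markers was 196 to 641 CPM, beside 134 to 492 CPM in macrophages.

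Over the stages, TBX3, TFAP2C, GATA3 and NFIB differed between late gestation and the start of lactation at an unadjusted p under 0.05, as did 12.8% of all genes, but no member was called with edgeR in the fit over all 10 sows with the filter on low counts. TBX3 in luminal nuclei was at 14.5 and 3.68 CPM in the sows of G90, and those of L0 held 1.09 and 0.876 CPM, from 16 and 10 UMIs. The sows of L20 held 21.4 and 31.8 CPM, those of PI2 37.9 and 21.2 CPM and those of PI7 55.3 and 26.4 CPM, all above the values of G90 and L0. The log2 fold change was -2.72 ± 0.64 for L0 against G90 (adjusted p = 0.117) and 4.28 ± 0.68 for L20 against L0 (unadjusted p = 7.65e-05, adjusted p = 0.106). TFAP2C was at 134 and 59.7 CPM at G90 and at 13.9 and 18.5 CPM at L0 (-2.14 ± 0.63, adjusted p = 0.187). NFIB was at 1456 and 999 CPM at G90 and 3228 and 3600 CPM at L0 (1.87 ± 0.46, adjusted p = 0.128), and GATA3 at 270 and 367 CPM and then at 94.1 and 135 CPM (-1.15 ± 0.49, adjusted p = 0.363). None of these 4 genes overlapped between the sows of G90 and L0, and neither did 56.6% of all genes.

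In luminal nuclei, edgeR called 0 members for L0 against G90, beside 0.00545% of all 18361 genes (1 gene), and 0 for L20 against L0, PI2 against L20 and PI7 against PI2, beside 0% of all genes. An adjusted p over the limit does not show that levels were alike. At an unadjusted p under 0.05 there were 4, 2, 0 and 0 members, beside 12.8%, 14.9%, 3.25% and 2.89% of all genes. DESeq2 called 3 members for L0 against G90 (TFAP2C at -2.17, adjusted p = 0.022, NFIB at 1.84, adjusted p = 0.0074, and TBX3 at -2.76, adjusted p = 0.00306) and 1 for L20 against L0 (TBX3 at 4.34, adjusted p = 3.81e-07), beside 4.9% and 5.9% of all genes. Without the filter on low counts edgeR called the same 3 members for L0 against G90 (TFAP2C at -2.19, adjusted p = 0.0496, NFIB at 1.82, adjusted p = 0.0288, and TBX3 at -2.76, adjusted p = 0.0229), beside 1.78% of all genes. For L20 against L0 it then called 2, TBX3 (4.26, adjusted p = 0.000573) and ELF3 (2.73, adjusted p = 0.0408), beside 2.47% of all genes. In a fit of G90 and L0 alone it called TFAP2C (-2.22, adjusted p = 0.0311), beside 4.76% of all genes. The edgeR call of TBX3 for L20 against L0 was also made when any 1 of the sows of G90 or of PI2 was left out (adjusted p = 0.04 to 0.0474), beside 0.0777% and 0.0772% of all genes without a sow of G90 and 0.454% and 0.551% without a sow of PI2.

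**Figure D4:**
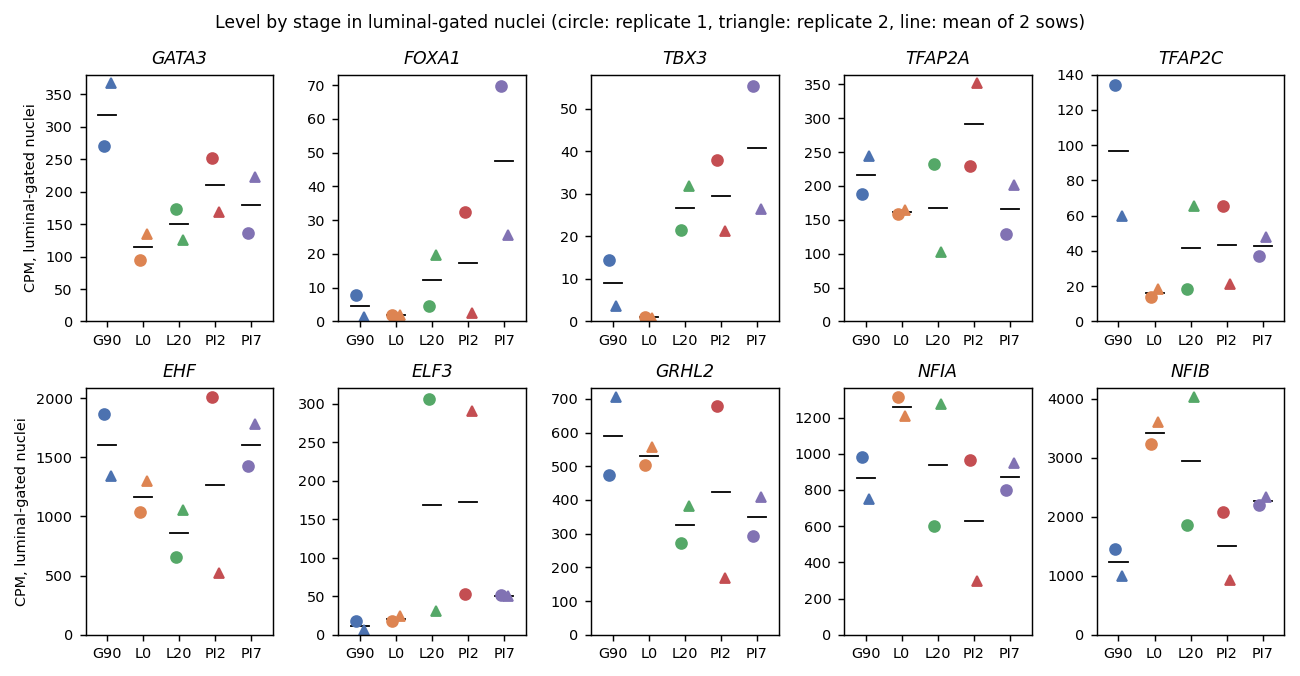
Level of each factor in luminal nuclei (CPM, linear axis from 0) by stage, with a circle for replicate 1, a triangle for replicate 2 and a line at their mean. TBX3 is near 0 at both sows of L0, TFAP2C is lower and NFIB higher at L0 than at G90, and ELF3 is high in 1 sow each of L20 and PI2.

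ELF3 was highest in 2 sows of different stages. It was at 306 CPM in L20 replicate 1 and at 291 CPM in PI2 replicate 2. The other 8 sows held 6.26 to 53.3 CPM, among them the other sows of L20 (31.2 CPM) and PI2 (53.3 CPM). Among these, the sows of G90 held 17.3 and 6.26 CPM, those of L0 17.6 and 24.3 CPM and those of PI7 51.3 and 50.2 CPM. L20 replicate 1 and PI2 replicate 2 are a pair of libraries that were each most like the other by their whole luminal profile. In the same libraries ELF3 was at 339 and 222 CPM in myoepithelial nuclei, where the others held at most 32 CPM. It was at 171 and 31.5 CPM in fibroblasts, where the others held at most 18.9 CPM, and at 123 and 20.4 CPM in macrophages. The 20.4 CPM of PI2 replicate 2 came from 4 UMIs, and L0 replicate 2 was at 20 CPM, so macrophages did not set that sow apart. For L20 against L0 the log2 fold change of ELF3 was 2.70 ± 1.08 (edgeR adjusted p = 0.281), and it was -0.10 without L20 replicate 1. The members with the widest range over the 10 sows were TBX3 (63.2-fold from lowest to highest), ELF3 (49-fold) and FOXA1 (48.1-fold). TFAP2C spanned 9.64-fold and the other 6 members from 3.41-fold (TFAP2A) to 4.45-fold (NFIA). EHF was at 523 CPM in PI2 replicate 2 and 2013 CPM in PI2 replicate 1, the lowest and the highest of the series in 1 stage, and GRHL2 (169 and 679 CPM), NFIA (295 and 965 CPM) and NFIB (932 and 2071 CPM) were lowest in the same library.

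In sums over all nuclei of a gland edgeR, with the filter on low counts, called 0 members in each of the 4 comparisons, beside 0% of all 22695 genes. At an unadjusted p under 0.05 there were 3, 4, 1 and 0 members, beside 7.28%, 12.8%, 3.6% and 2.04% of all genes. Without the filter edgeR called 0 members for L0 against G90 (0.115% of all genes) and TBX3 for L20 against L0 (3.70, adjusted p = 0.0183, 0.937% of all genes), and a fit of G90 and L0 alone called TFAP2C (-1.91, adjusted p = 0.0445, 2.01% of all genes). DESeq2 called 2 members for L0 against G90 (NFIB at 2.00 and TBX3 at -2.38) and TBX3 for L20 against L0 (3.70), beside 1.75% and 5.1% of all genes. EHF was at 987 and 1227 CPM at L0 and at 595 and 221 CPM at L20 (-1.80 ± 0.76, adjusted p = 0.354). Its lowest value belonged to L20 replicate 2, in which luminal nuclei were 6.03% of the nuclei kept, against 19.1% to 56.9% in the other glands. In luminal nuclei of that sow EHF was at 1055 CPM. GRHL2 (92.8 CPM), TFAP2A (23.1 CPM) and GATA3 (30.8 CPM) were lowest in the same gland, and their luminal levels were 381, 103 and 125 CPM. For TFAP2A this was also the lowest luminal level of the 10 sows, and for GATA3 only L0 replicate 1 (94.1 CPM) was lower.

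Genes with a pattern like that of the members were sought over 81 sums, 1 for each sow and class, among 11558 genes. The measure was Pearson's r of log2 levels, given as a description, since sums of 1 sow share a library. The closest to EHF were ELAPOR1 (0.96), ELF5 (0.92), its neighbour on chromosome 2, and GRHL2 (0.91). GRHL2 was closest to ELF5 (0.92) and EHF, and NFIB to GULP1 (0.91) and PKP4 (0.90). ELF3 was closest to SOD2 (0.85), STAT3 (0.81) and the chemokine gene CXCL2 (0.80). TFAP2A was closest to PTPRF (0.88), NFIA to CDC42BPA (0.82), GATA3 to PLPP2 (0.77), TFAP2C to SLC24A3 (0.75), TBX3 to IL1R1 (0.72) and FOXA1 to ADIRF (0.71). Between members, EHF and GRHL2 were most alike and NFIA and ELF3 least (-0.28).

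In milk, luminal cells held 8 of the members above macrophages, but almost no FOXA1 or TBX3. Milk is known to carry shed epithelial cells and leukocytes. With 1 sample a stage no test was possible, and values are given with exact Poisson intervals at 95%, which cover counting error only. Luminal-gated cells numbered 3044 in colostrum (L0) and 1201 in mature milk (L20). The intervals lay above those of macrophages for 15.7% of all genes with at least 10 UMIs at L0 and for 14.7% at L20. EHF was at 431 CPM (426 to 437) at L0 and 274 CPM (264 to 285) at L20. NFIB was at 138 (135 to 141) and 113 CPM (107 to 120), and GATA3 at 90.9 (88.5 to 93.5) and 29.6 CPM (26.3 to 33.2). FOXA1 had 14 UMIs at L0 and 5 at L20, which is 0.248 CPM (0.136 to 0.416) and 0.515 CPM (0.167 to 1.2). TBX3 had 44 and 5 UMIs, 0.78 CPM (0.567 to 1.05) and 0.515 CPM (0.167 to 1.2). In macrophages of milk both were at 0. The intervals of 7 members lay higher at L0 than at L20, with 0 lower, beside 41.6% of all genes higher and 8.14% lower. Luminal-gated cells had a median of 16896 UMIs at L0 and 2671 at L20, so depth differed with the stage, and its part was not tested.

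GATA3 and NFIA were also held by leukocytes of milk. GATA3 was at 89.1 CPM (67.1 to 116) in T/NK cells of L0 and 84.1 CPM (72.5 to 97.1) of L20, against 3.15 and 0.391 CPM in macrophages. At L20 this was above the luminal-gated cells. NFIA was at 33.8 CPM (31 to 36.9) in neutrophils of L0 and 70.8 CPM (65.7 to 76.1) of L20, where luminal-gated cells held 20.9 CPM (18.1 to 24). In neutrophils EHF was at 25.3 and 8.32 CPM and GRHL2 at 5.77 and 1.66 CPM.

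Spots of the tissue sections, each of which can hold several cells, were ranked by the share of their UMIs in luminal markers, and the 25% of spots with most were set beside the 25% with least. In the PI2 section FOXA1 was at 43.1 CPM (37.6 to 49.3) in the top and 10.7 CPM (6.8 to 16.1) in the bottom spots, ELF3 at 218 (205 to 231) and 31.7 CPM (24.6 to 40.2), and EHF at 341 (325 to 357) and 72.7 CPM (61.8 to 85.1). In the G90 section EHF was at 559 (545 to 574) and 409 CPM (395 to 424). The intervals of 6 members were higher in the top spots of each section, beside 17.4% of all genes with at least 10 UMIs at G90 (23% apart in either direction) and 16.2% at PI2 (27.3% in either direction). The other 4 overlapped at G90. At PI2 3 overlapped and NFIA was lower, with 3.79 CPM (2.28 to 5.93) in the top and 13.1 CPM (8.68 to 18.9) in the bottom spots. Over all spots, FOXA1 was at 5.3 CPM (4.63 to 6.04) at G90 and 25.9 CPM (23.6 to 28.4) at PI2, and ELF3 at 11.3 (10.3 to 12.4) and 99.5 CPM (95 to 104). EHF was at 512 and 225 CPM, GATA3 at 127 and 69 CPM, NFIB at 59.2 and 20.8 CPM and NFIA at 23.9 and 4.8 CPM. With 1 section a stage, the section and the stage cannot be told apart.

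**Figure D5:**
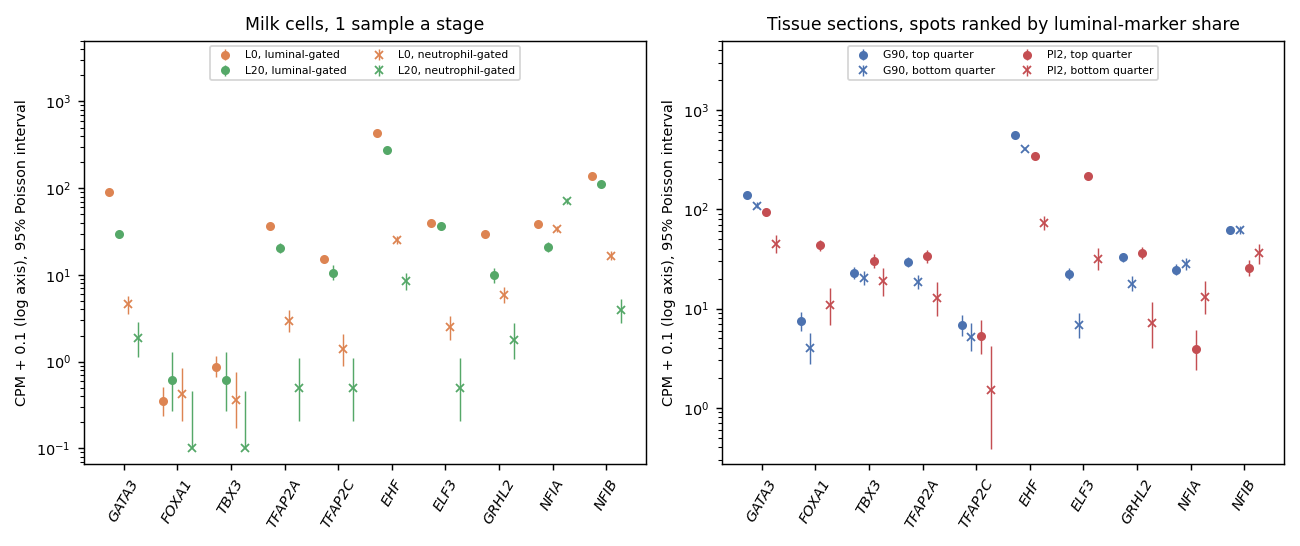
Left, level of each factor (CPM + 0.1, log axis) in luminal-gated and neutrophil-gated milk cells of L0 and L20; right, level in the spots of the G90 and PI2 sections with most and least luminal-marker UMIs. Bars are exact 95% Poisson intervals for 1 sample each. FOXA1 and TBX3 lie near 1 CPM or below in milk cells, and NFIA is higher in neutrophils than in luminal-gated cells at L20.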

How the data were processed

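Raw UMI counts per gene and nucleus, cell or spot were used as the authors deposited them. The authors made the counts of nuclei and milk cells with CeleScope after alignment to Sscrofa11.1 and those of the sections with Space Ranger (1.2.0 in the submitters' processing notes), and the matrices held barcodes called as cells. The annotation release of the counts was not given in the sources used here. Nuclei and milk cells were kept from 300 genes upward and if mitochondrial UMIs did not exceed 25%, 126833 of 128233 nuclei and 32085 of 40990 milk cells. No doublet caller was run, and leaving out the deepest 5% of nuclei was tried as an alternative.

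Nuclei were gated by markers, with no clustering, and a class needed 20 nuclei in a sow. The counts were summed per sow and class and tested with edgeR 4.0.16 (quasi-likelihood test, TMM scaling, filterByExpr) in R 4.3.3, and adjusted p-values are Benjamini-Hochberg over all genes tested. A call needed an adjusted p under 0.05 and a log2 fold change over 1 in size. The SE beside an edgeR log2 fold change is its size divided by the square root of the quasi-likelihood F, not a standard error estimated by the fit. Stages were compared in 1 fit over all 10 sows, and classes and luminal gates with the sow as a block. The p-values of stages measure the spread between these libraries. Those of classes and luminal gates measure the spread left after the block on the sow. DESeq2 1.42.0, no filter on low counts, stricter gates and leaving out each library were the alternatives. The fits of luminal nuclei, classes and luminal gates were tested on simulated data. At the spread of the luminal libraries, the fit of L0 against G90 missed most of the changes put in. The fits of classes and luminal gates recovered most of theirs. Intervals are exact Poisson, compared for genes of at least 10 UMIs over both groups, and cover counting error only, and no test was made with 1 sample a group.

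All 10 members are named in the text, with up to 4 called genes of largest fold per list and comparison, and the genes most like each member. The members and lists were chosen with earlier results of these data known. Promoter windows were read from the RefSeq annotation of Sscrofa11.1, in which all 10 members were found.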

Additional observations from a re-analysis of the deposited data

Results flagged for a closer look

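Log2 ratios of CPM + 1 between classes or gates of the same sow were searched for a single sow far from the others, and 5 of 80 sets of sows held one. The limit was Dixon's 95% critical value, which chance passes in about 1 of 20 sets. FOXA1 in luminal against endothelial nuclei was at -0.24 in G90 replicate 2, while the nearest sow was at 1.47 and the median at 1.78. In that library it rested on 3 UMIs in endothelial nuclei (exact Poisson interval 0.392 to 5.56 CPM), which holds the luminal level of 1.45 CPM. GRHL2 between the same classes was at 3.74 in L20 replicate 2, where luminal nuclei were 6.03% of all, with the nearest sow at 2.19. In that library GATA3 in T/NK against macrophage nuclei was also outlying, at 4.13 beside 2.27 in the nearest sow, and GATA3 was above 0 in all 10 sows. TBX3 in T/NK against macrophage nuclei was at -2.60 in L20 replicate 1, with the nearest sow at 0.00. That value lay at the floor of counting, with 3 UMIs of TBX3 in macrophages (1.05 to 14.8 CPM) and only 40 T/NK nuclei of 34614 UMIs in all. ELF3 in KIT-positive against secretory nuclei was at 2.39 in G90 replicate 1, with the nearest at 0.86 and the median at 0.34.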

How the results depend on the processing

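Of the counts of members called, 251 values under alternatives were within 1.5 times that reported and 20 were not. In luminal nuclei, L0 against G90 had 3 members called with DESeq2, 3 without the filter on low counts, 1 with only these 2 stages and 3 without L20 replicate 1 and PI2 replicate 2 together, a setting chosen after seeing the data (3.55% of all genes called), against 0 reported. L20 against L0 had 1 with DESeq2, 2 without the filter and 1 without any 1 sow of G90 or of PI2. Without those libraries L20 was left with 1 sow, and the log2 fold change of TBX3 was 4.51. In whole glands, L0 against G90 had 2 with DESeq2 and 1 with only 2 stages, and L20 against L0 had 1 with DESeq2 and 1 without the filter. Without those libraries, with 1 sow left at L20, TFAP2A was at -3.49, EHF at -3.06 and TBX3 at 3.25 for L20 against L0. Luminal against myoepithelial nuclei had 6 without the filter, 3 without those libraries (11.5% of all genes) and 1 to 2 without each replicate (7.5% to 9.86% of all genes), against 1 reported. The cause was not tested.

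Changes of sign were found for values near 0 and for ELF3, L20 against L0 in luminal nuclei, which was -0.10 to 3.60 without each replicate and -0.10 without L20 replicate 1. With DESeq2 GATA3 was at -0.06 against myoepithelial nuclei, NFIA at -0.21 against fibroblasts and -0.05 against endothelial nuclei, and FOXA1 at -0.09 in KIT-positive against secretory nuclei. With at least 50 nuclei NFIA was at -0.09 against fibroblasts and FOXA1 at -0.04 between KIT-positive and secretory nuclei, and without the deepest 5% of nuclei NFIA was at -0.01. In T/NK against macrophage nuclei TFAP2A was at -0.03 without the filter and -0.36 without the block on the sow, and ELF3 at -0.83. Without each replicate NFIA against fibroblasts ran from -0.10 to 0.18, TFAP2A in T/NK against macrophage nuclei from -0.08 to 0.14, and between KIT-positive and secretory nuclei FOXA1 from -0.08 to 0.26, TFAP2C from -0.10 to 0.01 and NFIA from -0.00 to 0.06.

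The replicate numbers did not pair the sows: deviations from the stage means correlated at -0.403 to 0.267 in luminal nuclei, over 0.1 in 2 of 10 pairs. With the replicate block, edgeR called 0 members and 0% of all genes in all 8 comparisons of stages. The stages had 2 sows each, and 1 sample a group allows no test in milk and sections.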
